A study of Mus musculus with 71 samples.

Results

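The 6 genes described here encode the hormones of the anterior pituitary or their subunits: Gh, Prl, Pomc, Cga, Tshb and Lhb. They were taken by gene symbol, whatever their level, and are represented by 10 of the 45037 probe sets (a probe set is the group of short probes that reads 1 transcript on the array) and by 6 of 18193 gene symbols. Gh has 4 probe sets, Pomc has 2 and the others have 1 each. RNA was taken from the whole brain of male mice aged 12 to 13 weeks, of the inbred strains DBA/2J, C57BL/6J and AKR/J, and 71 Affymetrix arrays were hybridised in 24 groups. In each strain, mice were either kept awake for 6 h (sleep-deprived, 35 arrays) or left in the home cage (control, 36 arrays), and were killed at zeitgeber time (hours after lights on) ZT0, ZT6, ZT12 or ZT18. The sample labels give these times as times of sacrifice, whereas the series text names the same times as the start of the deprivation. Each array carried RNA pooled from 3 mice, and each group had 3 arrays except sleep-deprived AKR/J at ZT18, which had 2. A level is therefore a mean over 3 brains, and the spread between single mice is not visible. Whether the pituitary was kept with the brain or cut away is not given in the sources used here.

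The anterior pituitary lies below the hypothalamus, outside the blood-brain barrier, and releases its hormones into the circulation. Somatotrophs make growth hormone (Gh), lactotrophs prolactin (Prl), thyrotrophs the beta subunit of thyrotropin (Tshb) and gonadotrophs the beta subunits of luteinising and follicle-stimulating hormone (Lhb and Fshb). Cga encodes the alpha subunit that thyrotropin and both gonadotropins share. Pomc encodes the precursor of corticotropin and of melanocyte-stimulating hormone. It is made by corticotrophs, by the melanotrophs of the intermediate lobe and also by neurons of the hypothalamic arcuate nucleus.

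The promoters of these genes hold binding sites for factors of pituitary cell types. RefSeq promoters (250 bases before the start of transcription, build GRCm38.p6) matched 5 of the 6 genes, all but Gh. Of these, 3 are shown: Prl and Cga, the pair with the highest correlation below, and Lhb, a gonadotroph gene. They lie at chr13:27057320-27057569 on the plus strand (Prl), chr4:34893529-34893778 on the plus strand (Cga) and chr7:45420696-45420945 on the plus strand (Lhb). Capitals mark every match, on either strand, to TATNCAT (the core of Pit-1 sites; Pit-1 is the factor of somatotrophs, lactotrophs and thyrotrophs), TGACCTTG (the site of steroidogenic factor 1, a gonadotroph factor) and TATAAA (the TATA box).
Prl: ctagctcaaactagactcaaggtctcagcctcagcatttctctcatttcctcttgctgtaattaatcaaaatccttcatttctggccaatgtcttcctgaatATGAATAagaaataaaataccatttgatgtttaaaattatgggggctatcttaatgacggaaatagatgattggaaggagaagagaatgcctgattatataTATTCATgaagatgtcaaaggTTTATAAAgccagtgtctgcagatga
Cga: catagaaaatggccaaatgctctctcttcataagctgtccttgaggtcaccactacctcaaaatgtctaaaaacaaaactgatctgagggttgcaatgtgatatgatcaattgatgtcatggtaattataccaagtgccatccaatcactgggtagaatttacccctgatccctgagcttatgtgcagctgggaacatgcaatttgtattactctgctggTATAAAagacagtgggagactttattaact
Lhb: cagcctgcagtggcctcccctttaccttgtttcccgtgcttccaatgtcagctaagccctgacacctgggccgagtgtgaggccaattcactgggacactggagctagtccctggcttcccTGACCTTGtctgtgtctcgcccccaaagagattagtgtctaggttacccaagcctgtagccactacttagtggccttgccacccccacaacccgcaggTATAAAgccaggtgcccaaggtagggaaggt
TATNCAT occurred in Prl, 148 and 47 bases before the start, and in none of the other 4 promoters. It was present in 7.93% of all 32817 promoters of this length. TGACCTTG occurred in Lhb, 129 bases before the start, and in 1.33% of all promoters. TATAAA occurred in all 5 promoters and in 12.4% of all promoters. In Prl and Tshb it overlapped a TATAAA of the other strand. These are matches of letters and no evidence of binding.

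Gh varied widely between arrays. On the log2 scale of the deposited values its brightest probe set ran from 4.87 to 13.44 over the 71 arrays, a range of 8.57 or 380-fold in signal, with a median of 12.08. The other 3 probe sets of Gh gave 632-fold to 686-fold, so the size of the range depends on the probe set, and the lowest readings lie below the array median. Its mean lay above that of 97.97% of all probe sets. Prl ran from 4.53 to 11.17 (99.7-fold), Pomc (its brighter probe set) from 5.90 to 12.07 (72.3-fold) and Cga from 4.80 to 10.96 (71.7-fold). Tshb ran from 4.79 to 6.85 (4.16-fold) and Lhb from 4.95 to 6.30 (2.55-fold), and their means lay above only 46.4% and 46.2% of all probe sets. Levels of different probe sets are not comparable as amounts of RNA, so these ranges describe each probe set against itself. In a bulk sample, fewer cells of a type and less RNA per cell cannot be told apart.

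The variation lay within groups of like-treated mice. The residual standard deviation within groups was 2.35 for Gh, 2.01 for Prl, 1.80 for Pomc and 1.74 for Cga on the log2 scale, against a median of 0.118 over all probe sets. The 4 Gh probe sets, both of Pomc, Prl and Cga took the first 8 ranks of the 45037, and the first probe set of another gene, at rank 9, had 0.837. Tshb (0.371) ranked 45 and Lhb (0.261) ranked 190. Without the 8 arrays with the lowest Gh, described below, the value for Gh was 1.35, for Prl 1.47, for Pomc 1.45 and for Cga 1.30, and the same 8 probe sets held the first 8 ranks, ahead of 0.914 at rank 9. Strain, treatment and time together took up 31.3% of the variance of Gh, and 26.5% to 41.3% over all 10 probe sets. The median over all probe sets on the array was 44.4%. These shares are not corrected for the 24 group means fitted to 71 arrays. Such a fit takes up a large share of the variance even where groups do not differ. The residual standard deviation of Gh was 3.06 in AKR/J, 1.03 in C57BL/6J and 2.53 in DBA/2J.

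Single groups show the scale of this spread. In control AKR/J at ZT6 the 3 arrays read 5.20, 12.96 and 12.77 for Gh, a 216-fold difference in signal between the lowest and the highest. The other 3 Gh probe sets gave 279-fold, 449-fold and 443-fold for this group. In control AKR/J at ZT12 they read 12.08, 6.22 and 4.96. In sleep-deprived DBA/2J at ZT18 they read 5.70, 12.51 and 13.17. Other groups were tight: control AKR/J at ZT0 read 12.21, 12.13 and 12.21, and control DBA/2J at ZT6 read 12.36, 12.38 and 12.24. Group means of Gh ran from 7.75 ± 3.80 (SD, n = 3) in control AKR/J at ZT12 to 12.94 ± 0.57 (SD, n = 3) in control DBA/2J at ZT0. On the other 3 Gh probe sets the highest group was sleep-deprived C57BL/6J at ZT12, here second by 0.051, and the lowest was the same. No neighbouring means in that order were further apart than 1.14, less than the standard error of a difference between 2 groups (1.92). That standard error pools the spread of all groups, tight and wide, and on it neighbours do not differ. For Lhb the largest step, 0.44, was above the standard error of 0.21, and for the other members it was below theirs.

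The extremes of this order recurred in several genes. Control DBA/2J at ZT0 was highest for Prl (10.54 ± 0.74, SD, n = 3), Cga (10.48 ± 0.63, SD, n = 3) and Lhb (6.01 ± 0.40, SD, n = 3). Control AKR/J at ZT12 was also lowest for Prl (6.14 ± 2.77, SD, n = 3), Cga (6.54 ± 1.95, SD, n = 3) and Tshb (5.03 ± 0.23, SD, n = 3). Tshb was highest in sleep-deprived C57BL/6J at ZT12 (5.72 ± 0.21, SD, n = 3) and Lhb lowest in sleep-deprived AKR/J at ZT0 (5.08 ± 0.10, SD, n = 3). The order differed in between. Sleep-deprived C57BL/6J at ZT0 was in place 6 for Gh but 23 for Lhb, and sleep-deprived DBA/2J at ZT18 was in place 18 for Gh but 2 for Tshb. Pomc was highest in sleep-deprived DBA/2J at ZT6 (10.63 ± 0.36, SD, n = 3) and lowest in sleep-deprived AKR/J at ZT12 (6.95 ± 0.67, SD, n = 3).

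**Figure D1:**
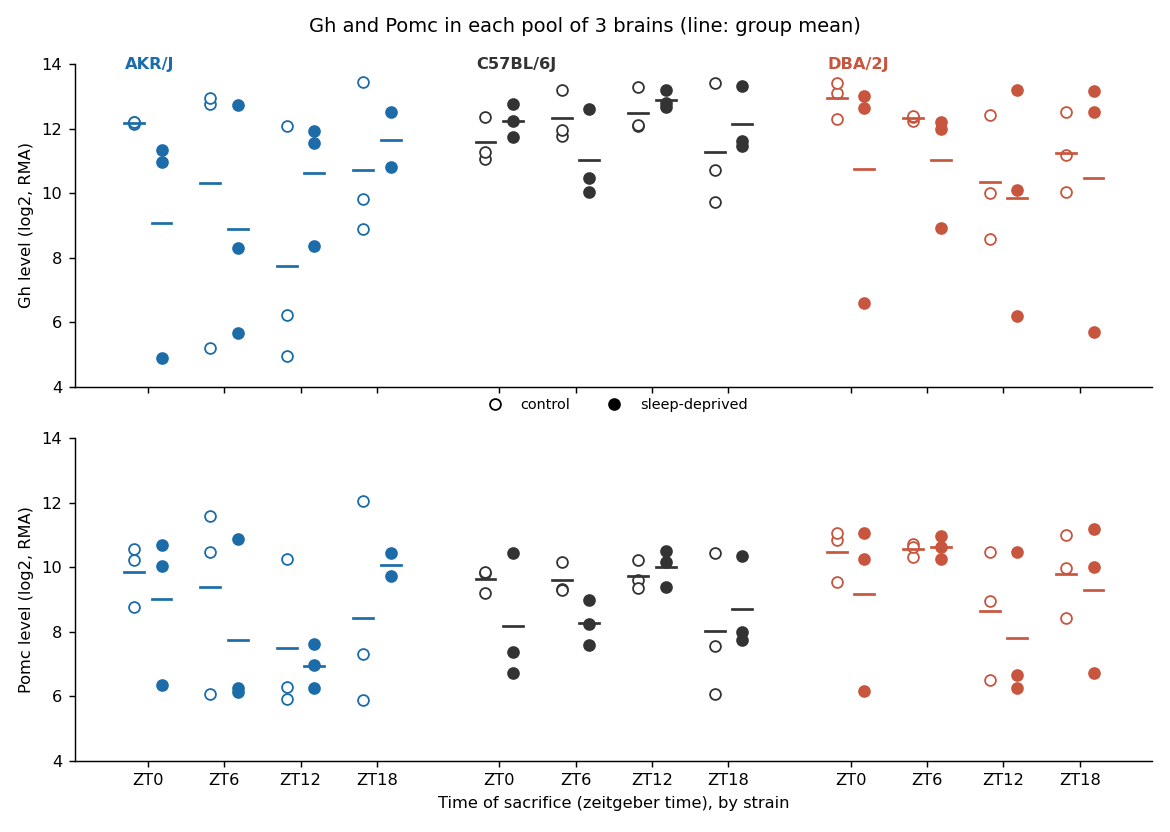
Level of Gh (top) and Pomc (bottom) in each array, in log2 units, by strain and time of sacrifice; open points are controls, filled points sleep-deprived, and short lines group means. Gh in C57BL/6J stays at 9.71 or above, whereas AKR/J and DBA/2J hold 8 arrays under 7.

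In 8 arrays Gh was under 7, and the next array stood at 8.29, a gap of 1.69 above the highest of the 8 (6.61). Of these, 5 were AKR/J, 3 DBA/2J and 0 C57BL/6J, and 3 were controls and 5 sleep-deprived. Prl, Cga and Pomc were low in the same arrays: Prl lay between 4.53 and 5.12, Cga between 4.80 and 5.75, and Pomc between 5.93 and 6.74. Pomc was as low in several other arrays, and its lowest value, 5.90, was in control AKR/J at ZT18 replicate 3 (Gh 8.88). Prl read 4.98 in sleep-deprived AKR/J at ZT6 replicate 3 (Gh 8.29). Tshb lay between 4.81 and 5.30 and Lhb between 4.97 and 5.34, against medians of 5.37 and 5.33 over all arrays, so these genes set the 8 arrays apart less clearly. Their lowest values lay elsewhere, 4.79 for Tshb in control AKR/J at ZT18 replicate 1 and 4.95 for Lhb in sleep-deprived DBA/2J at ZT6 replicate 3. At the other end, the array with the highest Gh, control AKR/J at ZT18 replicate 2 (13.44), also had the highest Pomc (12.07) and the highest Tshb (6.85). Control DBA/2J at ZT0 replicate 3 (Gh 13.42) had the highest Prl (11.17), Cga (10.96) and Lhb (6.30).

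Deviations of the arrays from their group means were then compared between genes, with each gene's brightest probe set. All 15 pairs of the 6 genes were correlated over 71 arrays, and each had a permutation p of 1e-05 for Pearson's r and for Spearman's rho, the smallest that 100000 resamples within groups can give, and 1e-05 after Benjamini-Hochberg adjustment over the 15 pairs. Prl and Cga had the highest r, 0.987 (rho 0.986). Gh correlated with Prl at r = 0.970 (rho 0.982), with Cga at 0.961 (rho 0.980), with Pomc at 0.873 (rho 0.857), with Tshb at 0.729 (rho 0.860) and with Lhb at 0.691 (rho 0.762). The lowest r was that of Pomc and Lhb, 0.668 (rho 0.661). Without the 2 arrays farthest from the median of the first gene, Gh and Prl kept r = 0.964, Gh and Pomc 0.847, and Pomc and Lhb 0.606.

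Every pair also passed without the arrays of low signal. Without the 8 arrays with Gh under 7 the 15 values of r ran from 0.573 to 0.984 over 63 arrays, with a highest permutation p of 0.00156. Within single strains the lowest r was 0.620, that of Pomc and Lhb in C57BL/6J. Both genes of a pair were read on the same arrays and share their hybridisation and normalisation, whose part was not tested. On the spike-in controls added to the RNA, 6 arrays (4 C57BL/6J and 2 AKR/J) stood apart. Gh lay between 10.04 and 12.77 in those 6, within the range of the others.

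**Figure D2:**
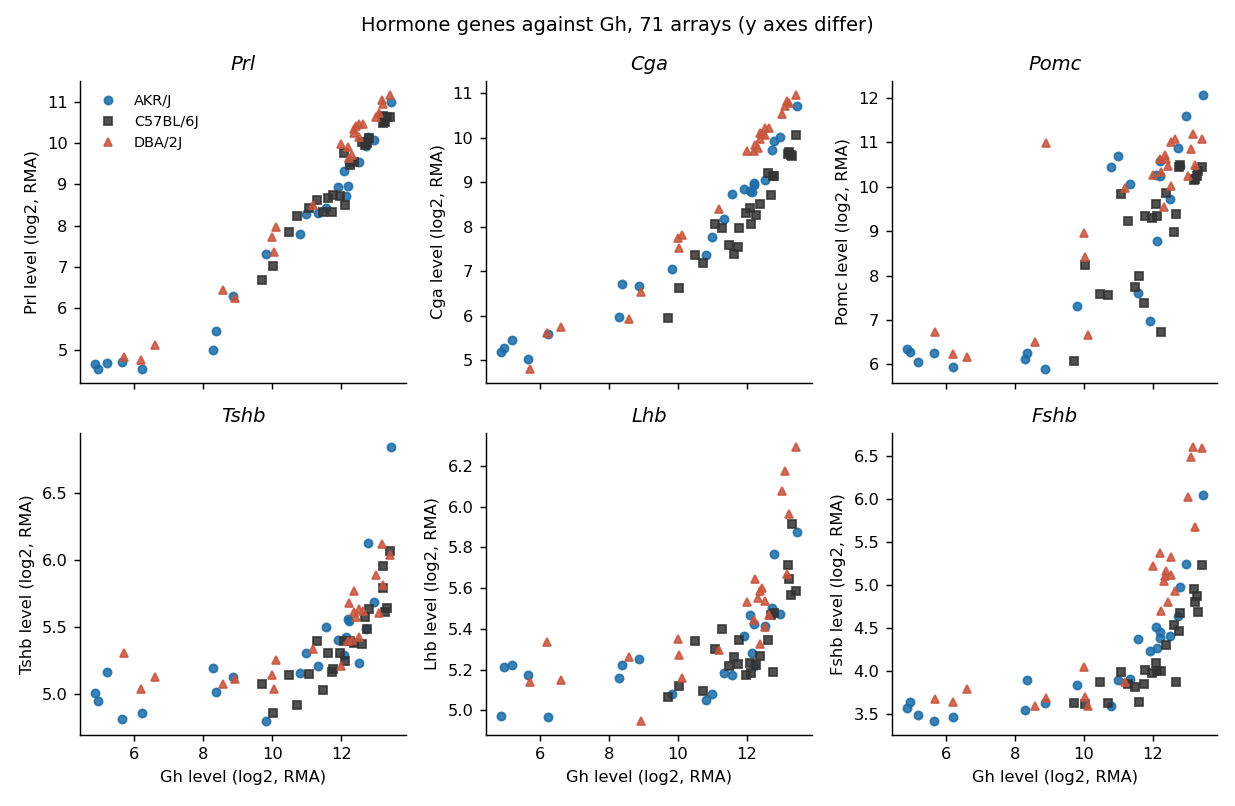
Level of Prl, Cga, Pomc, Tshb, Lhb and Fshb (vertical, log2) against that of Gh (horizontal, log2) in 71 arrays, coloured by strain; the vertical scales differ. Prl and Cga follow Gh closely (r = 0.970 and 0.961 within groups), Pomc scatters more (0.873), and Tshb, Lhb and Fshb are flat at low Gh and rise at its upper end.

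Pomc left the common line in single arrays. In sleep-deprived C57BL/6J at ZT0 replicate 3 Gh read 12.25, Prl 9.47 and Cga 8.27, but Pomc 6.72, within the range of the arrays with almost no Gh signal. Sleep-deprived AKR/J at ZT12 replicate 2 (Gh 11.92, Pomc 6.98) and sleep-deprived C57BL/6J at ZT0 replicate 2 (Gh 11.74, Pomc 7.37) were of the same kind. The opposite was seen in sleep-deprived DBA/2J at ZT6 replicate 3, where Gh read 8.92, Prl 6.25 and Cga 6.53, but Pomc 10.99. These arrays were picked for their distance from the line and carry no test.

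The genes that moved with Gh were sought over the whole array, with limma and Gh as a covariate beside the 24 group means. Of 45033 probe sets tested (Gh's own 4 left out), 15 passed an adjusted p under 0.05, which is 0.0333%, all with a positive slope. All 6 probe sets of the other 5 hormone genes were among them. For each log2 unit of Gh, Prl changed by 0.83 ± 0.03 log2 units (SE; limma adjusted p = 6.71e-30), Cga by 0.71 ± 0.03 (SE; limma adjusted p = 3.76e-27) and Pomc by 0.67 ± 0.05 (SE; limma adjusted p = 2.93e-14) on its brighter and 0.76 ± 0.06 on its other probe set. The slopes of Tshb, 0.11 ± 0.01 (SE; limma adjusted p = 2.23e-06), and Lhb, 0.077 ± 0.011 (SE; limma adjusted p = 4.89e-05), were shallower. The median slope of all probe sets was 0.00037, and the 99th percentile was 0.022.

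Besides these genes, 6 named genes moved with Gh. All but Dlk1 (mean level 6.25) had mean levels below the median level on the arrays, 5.68. They were 4.38 for Fshb, 4.85 for Epcam, 4.92 for Polh, 4.43 for Styxl1 and 4.80 for Pappa2. Fshb, the hormone subunit most like the members, had a slope of 0.26 ± 0.03 (SE; limma adjusted p = 8.06e-10) and r = 0.807 with Gh within groups. Dlk1, an imprinted membrane protein of the Notch ligand family, followed with 0.11 (r = 0.774). Epcam, an epithelial cell adhesion molecule, had 0.060 (r = 0.643), Polh, a DNA polymerase that copies past damage, 0.041 (r = 0.674), Styxl1, a phosphatase-like protein, 0.037 (r = 0.633) and Pappa2, a protease of insulin-like growth factor binding proteins, 0.033 (r = 0.627). The remaining 3 probe sets had no or several gene symbols. With Prl as the covariate 17 probe sets passed, of which 13 were among the 15, and with Cga 20, of which 14 were among the 15. Fshb, Dlk1 and Epcam passed with Gh, Prl, Cga or the mean of the 6 genes as covariate, without the 8 arrays with low Gh, and with a term for the 6 spike-in arrays. With that term 27 probe sets passed, 7 of them with a negative slope. Polh, Styxl1 and Pappa2 passed in the same settings as Fshb, except that they did not pass without the 8 arrays with low Gh.

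**Figure D3:**
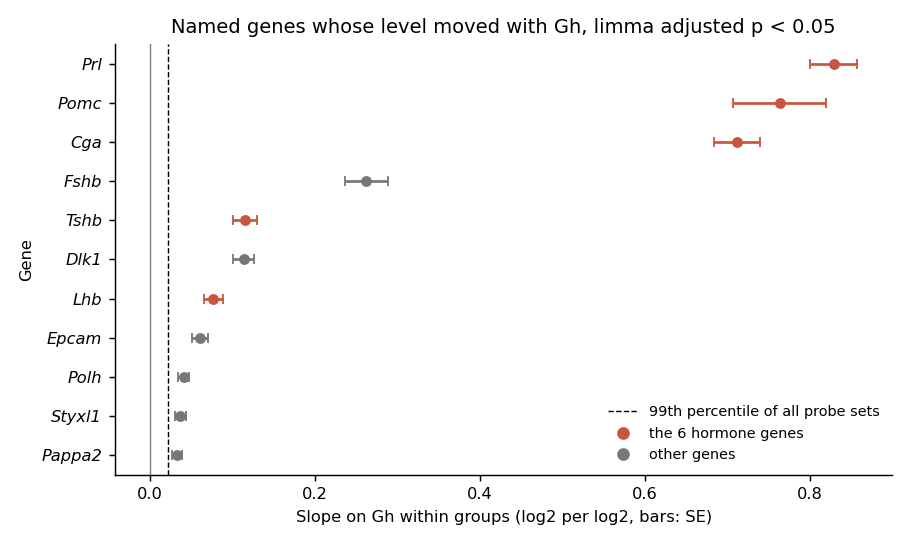
Slope on Gh within groups (horizontal, log2 units per log2 unit of Gh, bars are SE) for the 11 named genes past the threshold, with the hormone genes in red and others in grey; Pomc is shown by the probe set with the smaller p. Prl, Pomc and Cga stand near 0.7 to 0.8, Fshb at 0.26, and the others at 0.11 or below.

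The other genes known for the pituitary and its surroundings gave few calls. Of 10 measured genes for other pituitary hormones and secretory granules, 1 passed (Fshb). Of 12 pituitary transcription factors 0 passed in limma, with a median slope of 0.010. The smallest unadjusted value among them, noted after the values were seen, was that of Lhx3 (slope 0.035, limma adjusted p = 0.117), a factor of early pituitary development. Lhx3 passed with Prl, Cga or the mean of the 6 genes as covariate. None of 11 pituitary receptors passed (median slope 0.0035). Neither did any of 7 hypothalamic releasing or inhibiting factors (0.0029), 9 other hypothalamic neuropeptides (0.0013), 7 posterior pituitary and tanycyte genes (-0.0065), 7 pineal genes (-0.0026), 9 choroid plexus genes (-0.0029), 10 meningeal genes (0.0041) or 6 blood cell genes (0.013). The 10 neuronal markers, whose mean levels of 8.43 to 13.44 fit the brain label, had a median slope of -0.0048 and 0 calls. The other 11 lists (astrocytes, oligodendrocytes, microglia, endothelium, cerebellum, olfactory bulb, striatum, brainstem, sensory ganglion, retina and immediate early genes) also had 0 calls, with median slopes from -0.010 to 0.0061.

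At a given Gh level, Pomc gave no call. With both as covariates, 0 of 45031 probe sets passed in limma for the Pomc slope at a given Gh level, and 1555 had an unadjusted p under 0.05. Among the latter were Tshb (0.12 ± 0.04, SE), Cga (0.20 ± 0.07, SE) and Prl (0.16 ± 0.07, SE), each with a limma adjusted p of 1.00. Lhb (0.04 ± 0.03, SE) had an unadjusted limma p of 0.195. Gh and Pomc were themselves correlated within groups (r = 0.873), which limits what this fit can separate. For Gh at a given Pomc level 2 probe sets passed, 0.00444%: Prl (0.72 ± 0.06, SE) and Cga (0.58 ± 0.05, SE).

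The slopes were also fitted within each strain. In AKR/J 5 probe sets passed (0.0111%), in C57BL/6J 6 (0.0133%) and in DBA/2J 7 (0.0155%), all positive. Prl, Cga and the brighter Pomc probe set passed in each strain. Tshb passed in C57BL/6J (0.27 ± 0.03, SE) and DBA/2J (0.10 ± 0.01, SE), with a limma adjusted p of 0.617 in AKR/J (0.11 ± 0.03, SE). Lhb did not pass in any strain alone. Cga had slopes of 0.60 ± 0.03 in AKR/J, 1.06 ± 0.05 in C57BL/6J and 0.81 ± 0.03 in DBA/2J (SE). It was the 1 probe set of 45033 (0.00222%) whose slope differed between strains (limma F test, adjusted p = 0.00846). Of the 8 arrays with low Gh, none was C57BL/6J. Without them the slopes of Cga were 0.82 ± 0.04, 1.06 ± 0.05 and 1.03 ± 0.04 (SE), still lowest in AKR/J. In that fit control AKR/J at ZT12 kept only replicate 1, so no test of the difference is given.

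At a given Gh level, Cga differed between control mice of the strains. With Gh as a covariate, 1 of the 6 probe sets of the other hormone genes passed for C57BL/6J against AKR/J (22.5% of all probe sets passed), 0 for DBA/2J against AKR/J (17.7%) and 3 for DBA/2J against C57BL/6J (23.3%), shares that read against a high background. Cga was lower in C57BL/6J than in AKR/J by 0.89 ± 0.19 on the log2 scale (SE; -0.89, limma adjusted p = 0.000199) and higher in DBA/2J than in C57BL/6J by 1.10 ± 0.18 (SE; limma adjusted p = 2.79e-06). Lhb was higher in DBA/2J than in C57BL/6J by 0.26 ± 0.07 (SE; limma adjusted p = 0.00613), and Prl by 0.49 ± 0.19 (SE; limma adjusted p = 0.0483). For Prl the call was lost in 35 of the 71 refits that left out 1 array. Without the 8 low arrays, DBA/2J also exceeded AKR/J by 0.55 for Cga and by 0.48 for Prl. Those arrays were chosen by their Gh level, and the 3 controls among them were all AKR/J. Control AKR/J at ZT12 then kept only replicate 1, so no test is given for this fit. For DBA/2J against AKR/J with all arrays, 0 of the 6 probe sets had an unadjusted p under 0.05. At a given Gh level, all 6 probe sets were lower in C57BL/6J than in AKR/J, and higher in DBA/2J than in C57BL/6J. For Pomc the latter difference, not called, was 0.76 and 0.87 (limma adjusted p = 0.0976 and 0.0842). Without the covariate, C57BL/6J minus AKR/J, not called, was 1.15 for Prl, 0.46 and 0.49 for Pomc and 0.30 for Cga. It was -0.07 for Tshb and -0.03 for Lhb. The covariate thus turned the sign for Prl, Pomc and Cga, with Gh itself 1.68 higher in C57BL/6J. DBA/2J minus C57BL/6J was above 0 for all 6 probe sets without the covariate too. The fit takes 1 slope on Gh for all strains, whose part in these signs was not tested.

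Single arrays of like Gh level can be set beside this. Among the 9 arrays with the highest Gh, from 13.17 to 13.44, a number chosen after the values were seen and including 4 sleep-deprived arrays (2 of DBA/2J and 2 of C57BL/6J), Cga read 10.81, 10.78 and 10.96 in DBA/2J, 10.71 in AKR/J, and between 9.58 and 10.06 in the 5 of C57BL/6J. The C57BL/6J arrays were all below the others. The controls among them read 10.96 in DBA/2J, 10.71 in AKR/J and 9.67, 9.60 and 10.06 in C57BL/6J.

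**Figure D4:**
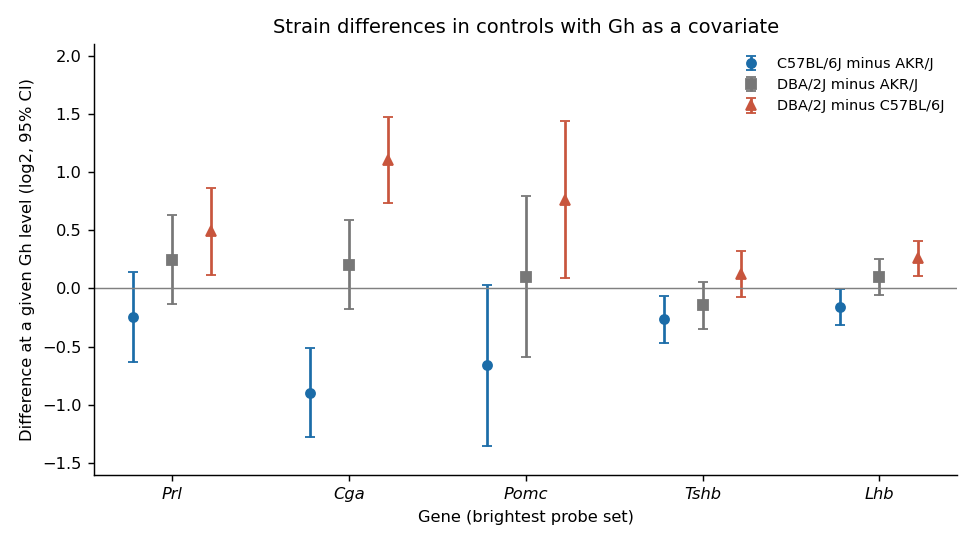
Difference between strains in control mice (vertical, log2, with 95% confidence interval) at a given Gh level for Prl, Cga, Pomc, Tshb and Lhb. Cga differs most, at -0.89 for C57BL/6J minus AKR/J and 1.10 for DBA/2J minus C57BL/6J. Every gene lies below 0 in the first of these comparisons and above 0 in the second.

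Against this spread, sleep deprivation gave no call for any of the genes. Of the 10 probe sets 0 passed in limma over all strains and times, where 17.3% of all probe sets passed, and 0 had an unadjusted p under 0.05. Gh in sleep-deprived minus control mice differed by -0.41 ± 0.52 on the log2 scale (SE; 95% confidence interval -1.45 to 0.64; limma adjusted p = 0.708; permutation p = 0.457). The difference was -0.39 ± 0.44 for Prl, -0.48 ± 0.40 for Pomc, -0.39 ± 0.39 for Cga, -0.08 ± 0.08 for Tshb and -0.07 ± 0.06 for Lhb (SE). All 10 probe sets were lower on average, with a median of -0.42 against -0.0024 over all probe sets, and they were correlated, so these are not independent observations. Of the 12 differences by strain and time, Gh was higher in 5 and lower in 7, between -3.12 and 2.86. The interval of Gh does not exclude a decrease of up to 2.73-fold or an increase of up to 1.56-fold. Leaving out 1 array moved the difference of Gh between -0.62 (without control AKR/J ZT6 replicate 1) and -0.21 (without sleep-deprived DBA/2J ZT18 replicate 1), and that of Tshb to -0.03 (without control AKR/J ZT18 replicate 2). Without the 8 arrays with low Gh the difference of Gh was -0.15, and without the 6 spike-in arrays -0.18, and no member passed in any of these fits. The 8 arrays (5 sleep-deprived, 3 control) were chosen by their Gh level, so the value of -0.15 is no independent check.

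Single strains and times gave the same count of 0. It was 0 of 10 in AKR/J (background 5.85%), C57BL/6J (6.45%) and DBA/2J (6.9%), with 0 at an unadjusted limma p under 0.05 in each. It was 0 of 10 at ZT0 (1.71%), ZT6 (10.4%), ZT12 (9.75%) and ZT18 (0.0777%). The unadjusted p was under 0.05 for Lhb at ZT0 (-0.26, limma adjusted p = 0.296) and Tshb at ZT6 (-0.42, limma adjusted p = 0.0989). Tshb at ZT6 passed when control AKR/J ZT6 replicate 1 or ZT18 replicate 2 was left out, with adjusted p of 0.0454 and 0.0293, and with only the groups compared (0.0329). With Gh as a covariate the difference over all strains and times was -0.05 ± 0.11 for Prl, -0.10 ± 0.11 for Cga and -0.21 ± 0.20 for Pomc (SE), and 0 of the 6 probe sets passed (17.4% of all). Pomc came nearest at ZT12, where its level at a given Gh level was -0.98 ± 0.39 and, on its other probe set, -1.26 ± 0.43 (SE) in sleep-deprived minus control mice (limma adjusted p = 0.111 and 0.05002, neither under the threshold; 9.61% of all probe sets passed). Its time of day differences in sleep-deprived mice at a given Gh level had limma adjusted p of 0.340 and 0.193 (1.43% of all passed), with both probe sets under an unadjusted 0.05.

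**Figure D5:**
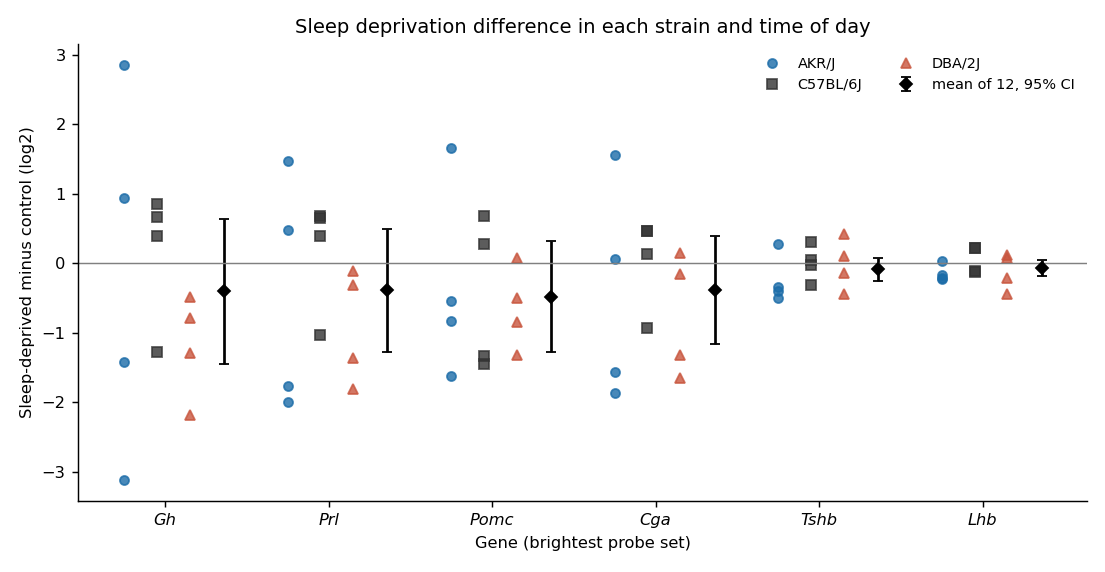
Sleep-deprived minus control (vertical, log2) for each gene in the 12 combinations of strain and time, coloured by strain, with the mean of the 12 and its 95% confidence interval as a black diamond. Every interval includes 0, and the points of Gh run from -3.12 to 2.86.

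Strain and time gave no call either. Between control mice 0 of the 10 probe sets passed for C57BL/6J against AKR/J (22.9% of all), DBA/2J against AKR/J (17.3%) and DBA/2J against C57BL/6J (23.2%). In the 3 comparisons, Gh differed by 1.68 ± 0.89, 1.47 ± 0.89 and -0.20 ± 0.89 (SE). These standard errors take 1 spread for all strains. The residual standard deviation of Gh was 3.06 in AKR/J, 1.03 in C57BL/6J and 2.53 in DBA/2J. The unadjusted limma p was under 0.05 for 0, 1 and 1 probe sets, in both cases Lhb, which was 0.21 higher in DBA/2J than in AKR/J and 0.24 higher than in C57BL/6J (limma adjusted p = 0.159 and 0.0739). Without control AKR/J ZT12 replicate 1, Gh passed for C57BL/6J against AKR/J (limma adjusted p = 0.0484). Without control AKR/J ZT18 replicate 2, Lhb passed for DBA/2J against AKR/J (0.0497), and it passed for DBA/2J against C57BL/6J without any of 4 arrays: control C57BL/6J ZT6 replicate 3 (0.0452), ZT12 replicate 1 (0.0483) and ZT18 replicate 3 (0.0341), and control DBA/2J ZT0 replicate 1 (0.0207). Time of day gave 0 of 10 in controls (11.7% of all) and in sleep-deprived mice (1.42%), as did the strain by deprivation interaction (0.0222%) and the time by deprivation interaction (1.4%), and no F test of a member had an unadjusted limma p under 0.05.

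The Gh level was also added to the comparisons of all genes. With Gh as a covariate 7819 probe sets passed for sleep deprivation over all strains and times, against 7795 without it, and 7586 passed in both. For sleep deprivation at ZT0, 670 of 770 calls were kept among 761, and for C57BL/6J against AKR/J in controls 9485 of 10302 among 10114.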

How the data were processed

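Levels were log2 values normalised by RMA, as deposited by the authors in the series value table; RMA is named in the submitters' processing notes, and its software and settings are not stated there. RMA puts all arrays on 1 distribution, so a level near the bottom is not a measured 0. Of 45101 probe sets, 64 spike-in and other controls were left out. Probe sets were named through the platform annotation, with symbols updated by Entrez ID (34945 had 1 symbol, 932 several and 9160 none). Array medians lay between 5.65 and 5.71, and the lowest correlation between arrays was 0.986. The number of arrays limits the precision.

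A limma model (limma 3.58.1, R 4.3.3) with a mean for each of 24 groups (47 residual degrees of freedom) was fitted to all 45037 probe sets, with moderated statistics, contrasts of group means and Benjamini-Hochberg adjustment over all probe sets; calls are at an adjusted p under 0.05. Slopes on Gh added its brightest probe set as a covariate. Sleep deprivation over all strains and times is the mean of the 12 differences. Permutation tests were two-sided and shuffled arrays within groups for correlations, and labels within strain and time for differences. The replicates are separate pools by the labels. The scripts were tested on simulated data with normal noise. Its standard deviation was capped below the residual standard deviations of Gh, Prl, Pomc and Cga, so a spread as wide as theirs was not covered. Named genes are every probe set of the 6 genes, up to 12 other named genes with the largest positive and 8 with the largest negative slope on Gh among those called, and up to 4 called genes of each of 22 marker lists; 6 named genes met the rule, none with a negative slope. The members and lists were chosen with earlier results of these data known. Promoter motifs were searched on both strands. The alternatives tried are in the closing section.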

Additional observations from a re-analysis of the deposited data

Results flagged for a closer look

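The slope of Cga on Gh differed between strains (limma F test, adjusted p = 0.00846), with 0.60 in AKR/J, 1.06 in C57BL/6J and 0.81 in DBA/2J. It was picked out because the same relation differed between groups by a test of the difference itself. Of the 8 arrays with Gh under 7, none was C57BL/6J. Without them the slopes were 0.82 ± 0.04, 1.06 ± 0.05 and 1.03 ± 0.04 (SE), still lowest in AKR/J. In that fit control AKR/J at ZT12 kept only replicate 1, so no test of the difference is given.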

How the results depend on the processing

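All 15 correlations between members passed in every alternative tried. The within-group standard deviation of Gh, 2.35, was 1.35 without the 8 arrays with Gh under 7, which the choice of those arrays lowers by construction, and 2.19 to 2.38 when 1 array was left out. The number of probe sets that moved with Gh was 15 in the model reported. It was 8 when only probe sets above the median level were tested (fewer were tested), 27 with a block for the 6 arrays that stand apart on the spike-ins, and 24 after leaving these out. It was 5, 6 and 7 with only AKR/J, only C57BL/6J and only DBA/2J (fewer arrays), and 13 to 26 when 1 array was left out, the highest without control AKR/J ZT6 replicate 1. The cause of the larger counts was not tested. Replicate numbers did not pair the arrays: deviations of arrays with the same number correlated at a median of 0.0055 (range -0.41 to 0.60, 123 of 805 pairs over 0.1). With the replicate block 24 probe sets moved with Gh, and the count of members called in the group comparisons stayed at 0.

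With only the compared groups, 1 member was called for sleep deprivation at ZT6 (Tshb) and 1 for DBA/2J against C57BL/6J (Lhb, limma adjusted p = 0.0314). Leaving out 1 array gave 0 to 1 member for sleep deprivation at ZT6 and for each of the 3 strain comparisons in controls. At a given Gh level, the uncalled difference of DBA/2J against AKR/J changed sign for Pomc with array weights (-0.0697) and with Prl as covariate (-0.0733, added after seeing the data), and for Cga with Prl as covariate (-0.00123). Leaving out 1 array gave -0.0443 to 0.384 for Pomc and -0.224 to 0.00417 for Tshb. The uncalled Tshb difference of C57BL/6J against AKR/J at a given Gh level (-0.26, limma adjusted p = 0.0525) passed with array weights (-0.30, limma adjusted p = 0.0215) and in 12 of 71 fits without 1 array (range -0.345 to -0.115). The Prl difference of DBA/2J against C57BL/6J at a given Gh level had a limma adjusted p of 0.051 with array median centring. The limma adjusted p was 0.0503 with the spike-in block, 0.0705 with trend and robust moderation and 0.0644 without the 6 arrays. Without the 8 low arrays this Prl difference was 0.54, in a fit where control AKR/J at ZT12 kept only replicate 1. The fits without the 8 low arrays, with Cga or Pomc as covariate and, for strain differences, with Prl as covariate were chosen after seeing the data.

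Limits: the depth of an array cannot be given as counts, and whether low signal scales with RNA was not tested.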
